A study of Homo sapiens with 45 samples.

Results

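HCT116 cells lacking the silencing scaffolds TNRC6A and TNRC6B were compared with HCT116 cells lacking the miRNA-binding proteins AGO1, AGO2 and AGO3. HCT116 is a human colorectal carcinoma line of epithelial type. Whole-cell small RNA was measured in 3 libraries of the TNRC6A/B KO line (TNRC6A-/-, TNRC6B-/-) and 3 of the AGO1/2/3 KO line (AGO1-/-, AGO2-/-, AGO3-/-), picked by their labels from 45 libraries in all. Neither line was labelled as lacking TNRC6C or AGO4. The 24 whole-cell libraries were fitted together, so 3 libraries each of TNRC6A KO, TNRC6B KO, AGO1/2 KO, AGO1 KO, AGO2 KO and wild-type (WT) cells give context. The labels number biological replicates and name no clones, so p-values measure only the spread between these samples, and differences between lines apart from the knockout cannot be told apart from its effect.

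A miRNA hairpin gives a 5p and a 3p strand. As background, an Argonaute (AGO) protein keeps one strand as the guide and shields it from decay, while the other strand, the passenger, is usually lost. TNRC6 proteins hold no miRNA of their own. They bind Argonaute and bring in the enzymes that shorten the poly(A) tail of the target mRNA, so the 2 knockouts break the same silencing complex at different points.

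The sequences that carry the comparison are printed from RefSeq (GRCh38.p14) with the seed, bases 2 to 8, in capitals. The first set holds guide strands that were lower in AGO1/2/3 KO cells, relative to the bulk of miRNA entries. It also holds the passenger strand miR-23a-5p, which went the other way.
miR-200c-3p: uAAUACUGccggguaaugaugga
miR-93-5p: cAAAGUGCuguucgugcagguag
miR-17-5p: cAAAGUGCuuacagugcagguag
miR-106a-5p: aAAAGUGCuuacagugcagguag
let-7a-5p: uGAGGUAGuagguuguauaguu
miR-191-5p: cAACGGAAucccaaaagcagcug
miR-24-3p: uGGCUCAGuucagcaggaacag
miR-23a-3p: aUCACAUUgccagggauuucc
miR-23a-5p: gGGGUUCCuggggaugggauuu
The second set holds miRNA entries that were high in TNRC6A/B KO cells and near 0 in AGO1/2/3 KO and WT cells alike.
miR-3684: uUAGACCUaguacacguccuu
miR-5089-5p: gUGGGAUUucugaguagcauc
miR-6863: uAGACGUGgugaaggauugagug
The third set holds entries that were low in TNRC6A/B KO cells. The first pair is rich in G and C.
miR-6787-5p: uGGCGGGGguagagcuggcugc
miR-1469: cUCGGCGCggggcgcgggcucc
miR-642a-3p: aGACACAUuuggagagggaacc

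miR-93-5p, miR-17-5p and miR-106a-5p share the seed AAAGUGC and come from 3 paralogous clusters. miR-93-5p lies at chr7:100093815-100093837 on the minus strand, in an intron of MCM7. miR-17-5p lies at chr13:91350618-91350640 on the plus strand, in an exon of MIR17HG. miR-106a-5p lies at chrX:134170244-134170266 on the minus strand. miR-200c-3p lies at chr12:6963742-6963764 on the plus strand, in an intron of the long non-coding RNA MIR200CHG. Both strands of miR-23a lie on the minus strand of chromosome 19, miR-23a-3p at chr19:13836595-13836615 and miR-23a-5p at chr19:13836630-13836651, in an exon of an antisense transcript. miR-191-5p lies in an intron of DALRD3 (chr3:49020672-49020694, minus). let-7a-5p is made from 3 genes (chr9:94175962-94175983, plus, chr11:122146568-122146589, minus, and chr22:46112752-46112773, plus), and miR-24-3p from a pair of genes (chr9:95086064-95086085, plus, and chr19:13836289-13836310, minus). miR-3684 lies in an intron of METAP1 (chr4:98997434-98997454, plus), miR-5089-5p in an intron of GOSR2 (chr17:46973027-46973047, plus) and miR-6863 in an intron of SLC12A3 (chr16:56904327-56904349, plus). In the third set, miR-6787-5p overlaps an exon of SLC16A3 (chr17:82236673-82236694, plus) and miR-1469 an exon of NR2F2 (chr15:96333261-96333282, plus), and miR-642a-3p lies in an intron of GIPR (chr19:45674978-45674999, plus).

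The libraries fell into 2 sets that follow the naming of the labels. The 9 TNRC6 KO libraries carry no prefix in their descriptions, and the 15 AGO KO and WT libraries carry the prefix IN. snoRNAs and scaRNAs, which guide RNA modification, took 3.49 to 4.34% of all counts in the 9 TNRC6 KO libraries and 0.120 to 0.187% in the 15 others. Cytosolic tRNA entries took 0.717 to 1.20% in the TNRC6 KO libraries and 12.9 to 28.2% in the others. rRNA took 53.8 to 61.5% in the TNRC6 KO libraries and 15.6 to 41.6% in the others. No range overlapped. WT cells were sequenced only with the prefix IN, and the labels give no batch or date, so TNRC6 genotype and naming set cannot be told apart. Comparisons of AGO1/2/3 KO with WT or AGO1/2 KO stay within 1 set, and so do those of TNRC6A/B KO with the single TNRC6 knockouts.

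**Figure D1:**
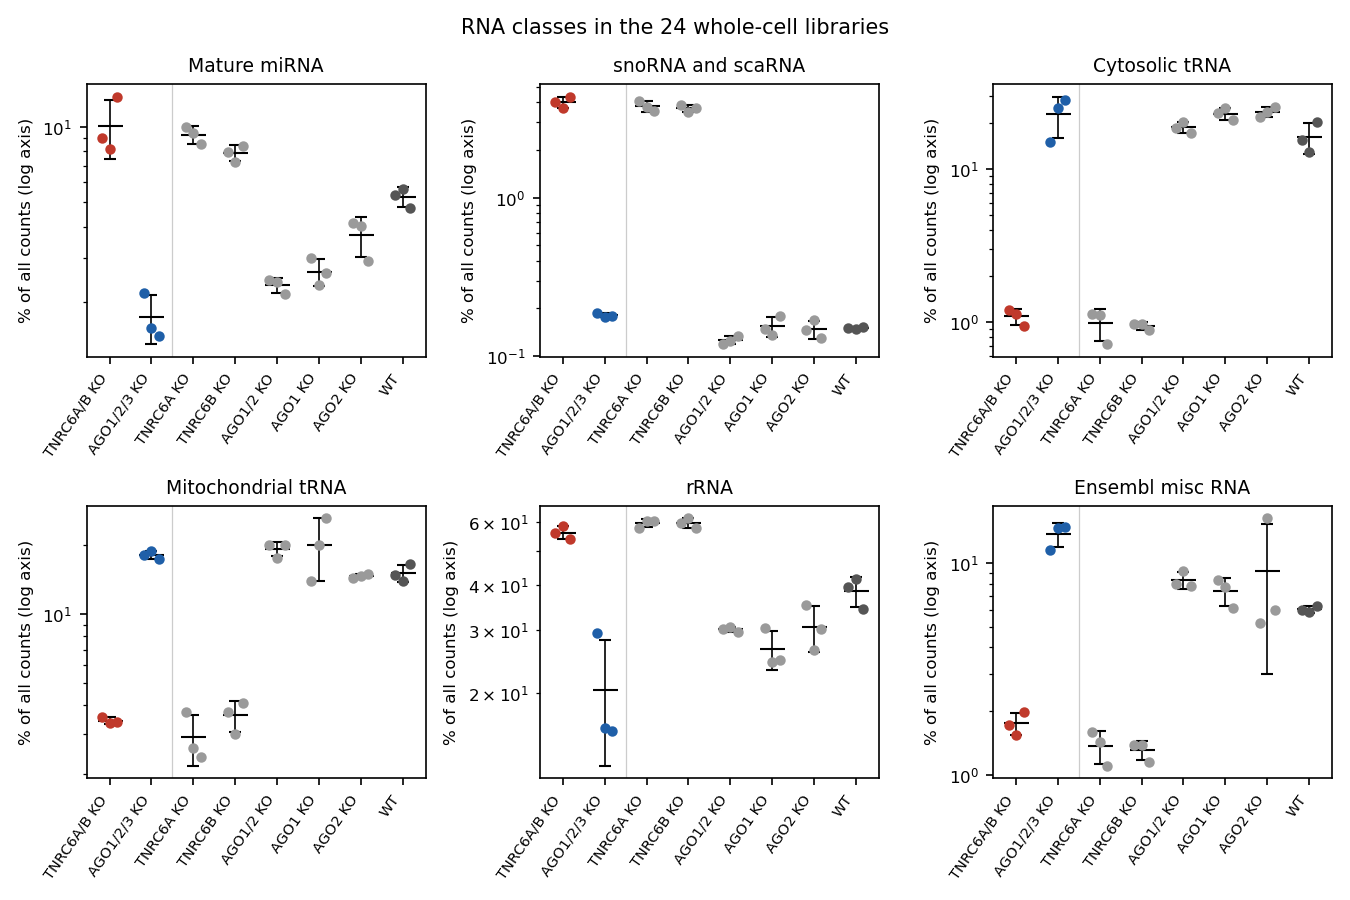
Share of all counts taken by 6 RNA classes (log axes, % of all counts) in each of the 24 whole-cell libraries, with TNRC6A/B KO in red, AGO1/2/3 KO in blue, WT in dark grey and other knockouts in light grey; bars show the mean and SD of 3 libraries. The 9 TNRC6 KO libraries sat at 3.49 to 4.34% snoRNA and scaRNA, against 0.120 to 0.187% in the 15 others.

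Fragments of the targeted mRNAs were few. AGO1 fragments numbered 18, 12 and 27 counts in TNRC6A/B KO, 1, 2 and 5 in AGO1/2/3 KO cells and 36, 29 and 22 in WT. AGO3 fragments numbered 29, 24 and 51 in TNRC6A/B KO, 2, 10 and 4 in AGO1/2/3 KO cells and 39, 22 and 48 in WT. Scaled to mRNA counts, TNRC6A fragments stood at 85.4, 86.0 and 58.3 CPM (counts scaled to a common total per library) in TNRC6A/B KO and 148, 193 and 173 in AGO1/2/3 KO, and TNRC6B fragments at 93.4, 89.4 and 85.5 in TNRC6A/B KO and 103, 154 and 225 in AGO1/2/3 KO. WT libraries held 141 to 194 CPM of TNRC6A and 262 to 276 CPM of TNRC6B. Between the knockouts, each of these 4 genes was lower in the line labelled as lacking it, without overlap. However, TNRC6B was also below WT in AGO1/2/3 KO. Scaled in the same way, AGO1 fragments were also below WT in TNRC6A/B KO, at 41.3 to 52.5 against 74.1 to 112 CPM. The fragments of TNRC6B and AGO1 are thus a weak check of the labels. AGO2 fragments ran from 331 to 382 CPM in TNRC6A/B KO and from 342 to 435 CPM in AGO1/2/3 KO, so they were not lower in the line labelled as lacking AGO2, and the files do not show which part of the gene they come from, so they check nothing.

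miRNAs made up a larger part of the RNA in TNRC6A/B KO cells. They took 8.995%, 8.17% and 13.2% of 4562545, 3592915 and 7888782 total counts in the TNRC6A/B KO libraries and 2.18%, 1.58% and 1.46% of 2727180, 4566817 and 3775627 in the AGO1/2/3 KO libraries. The groups did not overlap, and the mean difference was 8.37 percentage points, with an exact two-sided permutation p of 0.1, the smallest that 3 against 3 allows. The share was 5.25% ± 0.476 in WT, 2.33% ± 0.158 in AGO1/2 KO, 9.32% ± 0.746 in TNRC6A KO and 7.87% ± 0.568 in TNRC6B KO (SD, n = 3). Both the AGO1/2/3 KO and the AGO1/2 KO shares lay below WT within the IN set. The 9 TNRC6 KO libraries held 7.27 to 13.2% and the 15 IN libraries 1.46 to 5.67%. The miRNA share thus also separated the naming sets, so TNRC6 genotype and naming set cannot be told apart for it. In total RNA, a lower share cannot tell less miRNA per cell from more of the other RNAs.

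The counts that remained were spread over more miRNAs in AGO1/2/3 KO cells. The 10 miRNAs most abundant in WT took 48.0%, 42.9% and 57.5% of miRNA counts in TNRC6A/B KO and 28.6%, 22.6% and 21.3% in AGO1/2/3 KO, without overlap (exact two-sided permutation p = 0.1). WT libraries held 45.7% to 48.9% and AGO1/2 KO libraries 34.8% to 38.4%. TNRC6A KO averaged 49.7% ± 1.11 and TNRC6B KO 49.5% ± 0.969 (SD, n = 3).

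**Figure D2:**
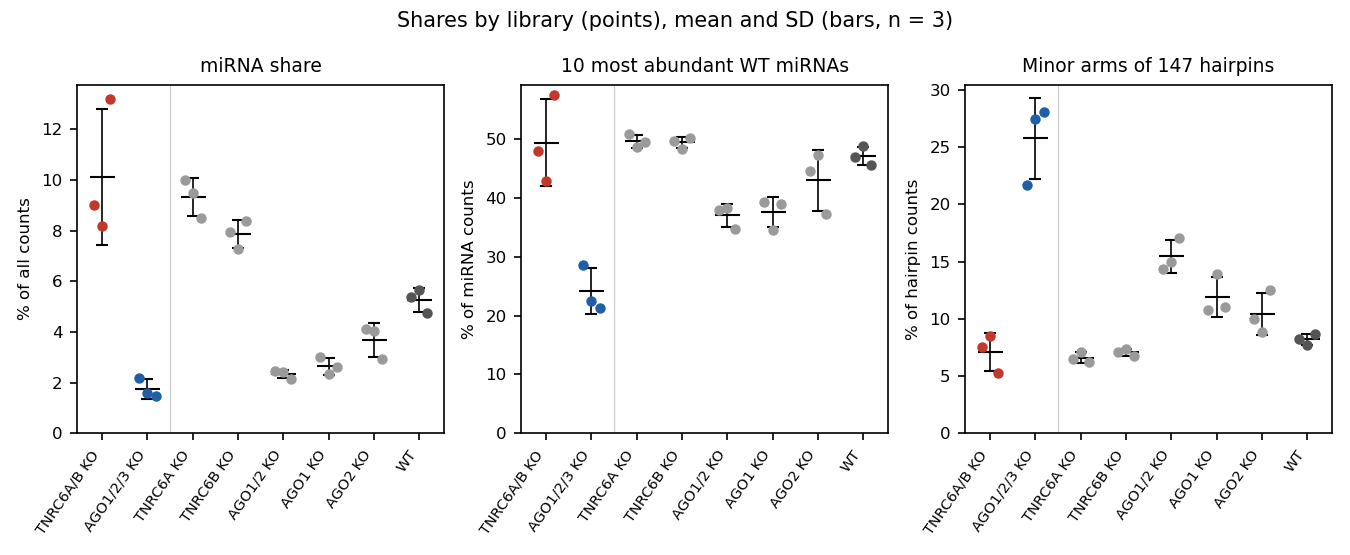
miRNA share of all counts, share of miRNA counts held by the 10 most abundant WT miRNAs, and share of hairpin counts on the minor arm of 147 hairpins, for each library (points) with mean and SD (n = 3). AGO1/2/3 KO libraries had miRNA shares of 1.46 to 2.18%, overlapping AGO1/2 KO, and the highest minor-arm shares of the 24 (21.7 to 28.1%).

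Levels of single miRNAs are given as CPM of the miRNA total after TMM scaling, which is relative to the bulk of miRNA entries. Fold changes are log2 values of TNRC6A/B KO over AGO1/2/3 KO ± SE, n = 3 per group, with adjusted p from edgeR's quasi-likelihood test. Of 1990 tested miRNAs, 989 (49.7%) passed an adjusted p of 0.05, 522 (26.2%) higher and 467 (23.5%) lower in TNRC6A/B KO. The median over all 1990 was 0.04. The split depends on the scale. Scaled to the miRNA total alone, 206 were higher and 950 lower with a median of -1.25, and scaled to all counted RNAs 1070 of 1774 were higher and 164 lower with a median of 1.64. Values are on the TMM scale unless another is named.

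miRNAs enriched with AGO2 were mostly higher in TNRC6A/B KO. Enrichment was read from an AGO2 immunoprecipitation (IP) of WT cells, whose libraries enter none of the tests. In 181 of the 1748 miRNAs with at least 10 WT counts, the share in the AGO2 IP was at least that in WT whole-cell RNA. Of these 181, 140 were higher and 4 lower in TNRC6A/B KO, with a median of 2.43, against 26.2% higher, 23.5% lower and a median of 0.04 over all tested. On the miRNA total 92 of the 181 were higher and 18 lower, and on all RNAs 172 and 2. The 4 lower ones, named after their values were seen, were miR-550a-5p (-3.01 ± 0.43), miR-26a-2-3p (-2.31 ± 0.38), miR-1285-5p (-1.46 ± 0.33) and miR-7113-5p (-1.35 ± 0.37). Of the 1567 with a lower share in the IP, 275 were higher and 454 lower, median -0.32. Within the IN set, AGO1/2/3 KO against WT called 341 of 1990 miRNAs (17.1%), 127 higher (6.38%) and 214 lower (10.8%), and in it 5 of the 181 were higher and 113 lower, median -1.70. The split over all miRNAs turned to 864 higher and 115 lower on the miRNA total and was 43 and 318 on all RNAs, while that of the 181 was 17 higher and 70 lower on the miRNA total and 1 and 130 on all RNAs. TNRC6A/B KO against WT, which crosses the sets, called 874 (43.9%), 495 higher (24.9%) and 379 lower (19.0%), with 57 of the 181 higher and 5 lower, median 0.48. Its split over all miRNAs was 396 higher and 424 lower on the miRNA total and 919 and 180 on all RNAs. These comparisons share libraries with each other. The WT whole-cell libraries also set the shares by which the 181 were chosen, so that choice is not independent of the comparisons with WT. Among lists, AGO1/2/3 KO against WT had 1 higher and 13 lower of 19 let-7 strands, 2 and 14 of 23 in the miR-17-92 clusters, and 0 and 8 of 9 in the miR-200 family, with medians of -1.72, -2.12 and -3.01. These medians stayed negative on the miRNA total, at -0.61, -0.98 and -1.90, and on all RNAs. When the 181 alone were fitted and set the scale, AGO1/2/3 KO against WT had 35 higher and 45 lower, median 0.11. On that scale let-7a-5p was -0.44 and did not pass (edgeR, adjusted p = 0.0938). There let-7f-5p was 0.09 and let-7b-5p 0.71, while miR-93-5p was -2.64 and miR-200c-3p -5.74.

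**Figure D3:**
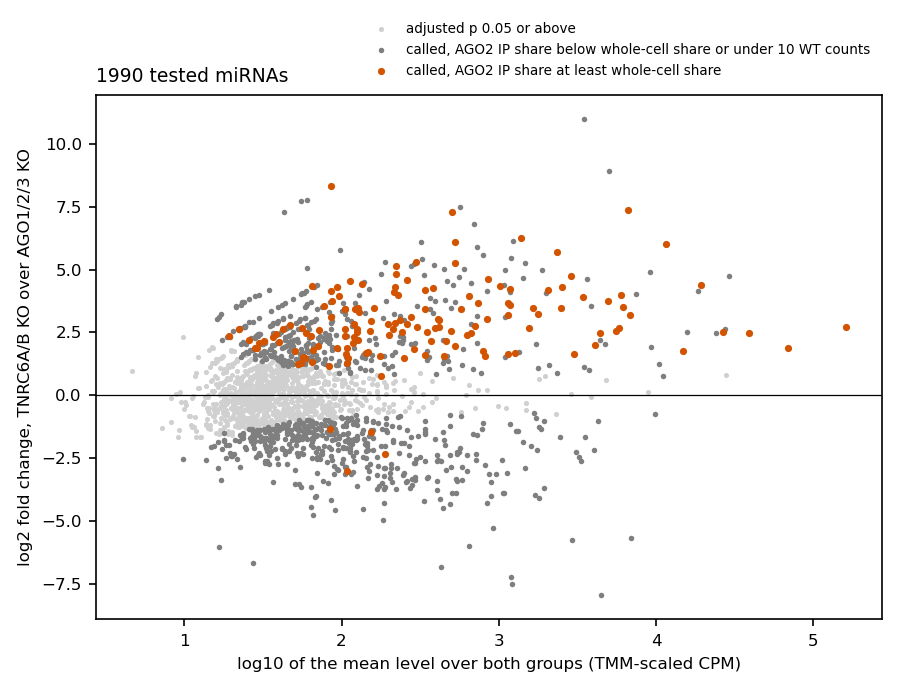
log2 fold change of TNRC6A/B KO over AGO1/2/3 KO against the log10 mean level of both groups (TMM-scaled CPM) for 1990 miRNAs, with the called miRNAs whose share in the AGO2 IP of WT is at least their whole-cell share in orange. Of the orange points 140 lie above 0 and 4 below it.

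miR-200c-3p, an epithelial marker that represses the ZEB transcription factors, stood at 15439, 10906 and 13111 CPM in TNRC6A/B KO, 97.8, 73.3 and 65.0 CPM in AGO1/2/3 KO cells and 14366, 15852 and 13779 CPM in WT. The TNRC6A/B KO and WT libraries overlapped, and the AGO1/2/3 KO libraries lay far below both. The log2 fold change was 7.38 ± 0.39 (adjusted p = 1.12e-18), and it stayed positive at 6.15 on the miRNA total and 8.61 on all RNAs. AGO1/2 KO cells, which keep AGO3, averaged 3221 CPM, between WT and AGO1/2/3 KO. Of the 9 tested strands of the miR-200 family, 8 were higher and none was lower, median 3.20, or 6 and 1 on the miRNA total, median 1.91. The background over all tested miRNAs was 26.2% higher and 23.5% lower, or 206 and 950 of 1990 on the miRNA total. miR-429 had 1876, 1287 and 1781 CPM in TNRC6A/B KO and 117, 58.7 and 27.8 in AGO1/2/3 KO, a change of 4.61 ± 0.43 that became 5.23 without AGO1/2/3 KO replicate 1. miR-200b-3p differed by 3.20 ± 0.34. The family is the epithelial marker list, and its presence in TNRC6A/B KO and WT goes with the epithelial label.

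The miR-17-92 cluster and its paralogs, which promote cell cycle entry, followed the same order. Of 23 tested strands 15 were higher and 3 lower, median 2.34, or 11 and 5 on the miRNA total, median 1.02. Among all tested miRNAs 26.2% were higher and 23.5% lower, or 206 and 950 of 1990 on the miRNA total. miR-93-5p had 19924, 22846 and 25318 CPM in TNRC6A/B KO, 401, 374 and 259.8 in AGO1/2/3 KO cells and 7173, 7986 and 7426 in WT. All 3 groups were apart, and the TNRC6A/B KO libraries were above WT. The change was 6.04 ± 0.41 (adjusted p = 3.04e-15). miR-17-5p had 4596, 4787 and 4325 CPM in TNRC6A/B KO and 117, 58.7 and 92.8 in AGO1/2/3 KO, a change of 5.69 ± 0.40. miR-106a-5p is nearly identical to miR-17-5p, and reads may be shared between them. It had 1144 counts in TNRC6A/B KO and 2 in AGO1/2/3 KO, a ratio of 172 on the TMM scale (95% counting interval 47.6 to 1424). miR-25-3p and miR-92a-3p, which have another seed, changed less, by 2.47 ± 0.34 and 2.49 ± 0.32. On the AGO2-enriched miRNAs alone they were 0.16 and 0.27 and did not pass (edgeR, adjusted p = 0.477 and 0.354), while miR-93-5p was 3.79.

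The let-7 family, which restrains growth and is the most abundant family in these cells, was also mostly higher. Of 19 tested strands 13 were higher and 2 lower, median 1.92, or 9 and 5 on the miRNA total, median 0.49. Beside this stand 26.2% higher and 23.5% lower over all tested miRNAs, or 206 and 950 of 1990 on the miRNA total. let-7a-5p had 187336, 135034 and 524021 CPM in TNRC6A/B KO, 52968, 38493 and 35818 in AGO1/2/3 KO cells and 201571, 219947 and 184306 in WT. TNRC6A/B KO replicate 3 was well above the other two, and without it the change of 2.73 ± 0.36 became 1.95. let-7d-5p changed by 4.16 ± 0.37, let-7g-5p by 2.48 ± 0.33. let-7f-5p changed by 1.90 ± 0.31, a direction that turned to -0.46 when the 181 AGO2-enriched miRNAs alone were fitted and set the scale, where let-7a-5p was 0.32 (adjusted p = 0.229). let-7b-5p had 22658, 14244 and 69427 CPM in TNRC6A/B KO and 26352, 17299.5 and 17259.7 in AGO1/2/3 KO. These groups overlapped, the value of 0.80 ± 0.35 did not pass (adjusted p = 0.052), and it was -0.11 without TNRC6A/B KO replicate 3 and -0.73 on the miRNA total. Members differ by few bases, so how the authors assigned shared reads may move counts between them.

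Other abundant guides differed by 1.76 to 4.75. miR-191-5p, the strand with the largest change among them, had 43896, 32177 and 92904 CPM in TNRC6A/B KO, 2445, 2112 and 1707 in AGO1/2/3 KO cells and 26258, 30149.8 and 27602 in WT. Its groups did not overlap, and the change was 4.75 ± 0.40 (adjusted p = 4.16e-13). miR-24-3p, processed from the clusters that also give miR-23 and miR-27, changed by 4.40 ± 0.40, miR-31-5p by 2.66 ± 0.36 and miR-23a-3p by 2.53 ± 0.34. On the AGO2-enriched miRNAs alone miR-24-3p was 2.07, and miR-23a-3p was 0.21 and did not pass (edgeR, adjusted p = 0.365). miR-21-5p, an oncogenic miRNA whose log2 ratio of AGO2 IP to whole-cell share was 2.86, changed by 1.76 ± 0.35, which was 0.41 on the miRNA total (adjusted p = 0.178) and -0.56 on the AGO2-enriched miRNAs alone. miR-15a-5p did not pass, at 0.15 ± 0.28 (adjusted p = 0.689) on the TMM scale, -1.11 on the miRNA total and 1.32 on all RNAs. Its log2 ratio of AGO2 IP share to whole-cell share was -7.49. miR-16-5p, which is made from a neighbouring hairpin, had a ratio of 1.38 and changed by 2.75 ± 0.37. Its change was 0.42 on the AGO2-enriched miRNAs alone and did not pass (edgeR, adjusted p = 0.163). Among the 10 most abundant in AGO1/2/3 KO were miR-4668-5p and miR-138-2-3p, with ratios of -4.96 and -9.76. miR-4668-5p was -0.75 ± 0.29 (adjusted p = 0.0271) but 0.49 on all RNAs, and the call was lost without TNRC6A/B KO replicate 2 or 3 or AGO1/2/3 KO replicate 1 or 2. miR-138-2-3p was 0.77 ± 0.29 (adjusted p = 0.0251) but -0.50 on the miRNA total, and the call was lost without TNRC6A/B KO replicate 1 or AGO1/2/3 KO replicate 2 or 3.

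The remaining lists are set against 26.2% higher and 23.5% lower over all tested miRNAs, or 206 and 950 of 1990 on the miRNA total. In the miR-125, miR-100, miR-99 and miR-10 families 9 of 13 strands were higher and 1 lower, median 2.46. The miRNA total gave 7 higher and 3 lower for these families, median 1.24. miR-99b-5p had 2992, 2577 and 6056 CPM in TNRC6A/B KO and 245, 183 and 213 in AGO1/2/3 KO, a change of 4.18 ± 0.36. miR-125b-5p changed by 3.77 ± 0.45, or 2.61 without TNRC6A/B KO replicate 3. Of 16 strands linked to colorectal cancer 12 were higher and 1 lower, median 2.21, or 7 and 4 on the miRNA total, median 0.83. Among them was miR-221-3p at 4.01 ± 0.40, or 3.33 without TNRC6A/B KO replicate 3. Of 8 p53-responsive strands 5 were higher and 2 lower, median 1.92, or 3 and 2 on the miRNA total, median 0.56. Within the IN set, AGO1/2/3 KO against WT called 0 of these 8 strands higher and 1 lower. In that comparison 6.38% of all tested miRNAs were higher and 10.8% lower. miR-34a-5p, the main p53 target among them, changed by 3.43 ± 0.41, or 2.85 without TNRC6A/B KO replicate 3. Of 11 muscle and stroma markers 7 were higher and none was lower, median 2.28, or 6 and 1 on the miRNA total, median 1.17. They summed to 4501.8 to 7949 CPM in TNRC6A/B KO, 547 to 665 in AGO1/2/3 KO cells and 3122 to 3362 in WT, with miR-126-3p at 4.16 ± 0.39 and miR-145-5p at 4.25 ± 0.47. Both were also present in WT cells at 1179 to 1352 and 326 to 477 CPM.

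For the next lists, the shares over all tested miRNAs were 26.2% higher and 23.5% lower. In the miR-15/16 family 4 of 13 strands were higher and 1 lower, median 0.15. miR-15b-3p changed by 3.25 ± 0.34. In the miR-30 family 4 of 11 were higher and 2 lower, median -0.08. Its miR-30c-5p changed by 1.98 ± 0.32, which was -0.32 on the AGO2-enriched miRNAs alone, and miR-30c-1-3p by -2.31 ± 0.30. Of 29 tested strands of the imprinted 14q32 cluster 8 were higher and 8 lower, and miR-382-3p changed by -2.18 ± 0.34, with 1308, 1021 and 2057 CPM in TNRC6A/B KO and 6808, 7201 and 5948 in AGO1/2/3 KO. Of 18 strands of the placental C19MC cluster 4 were higher and 3 lower. Of 9 blood markers 1 was higher and 1 lower, of 10 neural markers 3 and 2, and of 14 pluripotent cell markers 3 and 1. The direction of these 7 lists turns with the scale. Their medians ran from -1.45 to -0.66 on the miRNA total and from 1.19 to 1.89 on all RNAs, where the median over the 1990 miRNAs was -1.25 and that over the 1672 of them tested on all RNAs was 1.51. The 14q32 cluster, for example, had 1 higher and 13 lower on the miRNA total and 13 higher and 1 lower on all RNAs. The part of these marker lists in any result was not tested. miR-371b-3p, a pluripotent marker entry with a log2 AGO2 IP ratio of -3.81, was higher by 2.05 ± 0.37.

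miRNAs made without the usual Drosha step held members that changed in each direction. Of 22 mirtron strands, which are cut out as short introns, 6 were higher and 9 lower, against 26.2% higher and 23.5% lower over all tested, with a median of -0.91. On the miRNA total 5 were higher and 14 lower, against 206 and 950 of 1990 over all tested. On all RNAs 8 were higher and 6 lower, against 1070 and 164 of 1774. miR-877-5p had 2921, 2016 and 5944 CPM in TNRC6A/B KO, 78.3, 132 and 129.9 in AGO1/2/3 KO cells and 4023, 3709 and 2637 in WT, a change of 4.98 ± 0.40 with TNRC6A/B KO and WT overlapping. miR-1229-3p changed by 5.04 ± 0.43. miR-1237-5p changed by -1.45 ± 0.28, a call that was lost on all RNAs, at -0.20 (adjusted p = 0.532). Of 7 strands made from capped or other Drosha-independent precursors 2 were higher and 1 lower. miR-484 was 1.54 ± 0.39, or 0.13 (adjusted p = 0.775) on the miRNA total, and miR-320a-5p was -3.02 ± 0.32.

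The balance between the strands of a hairpin shifted toward the passenger in AGO1/2/3 KO cells. The ratio is formed within a library and needs no scaling. Over 147 hairpins with the major arm taken from the AGO2 IP of WT, the minor arm held 7.56%, 8.47% and 5.30% of hairpin counts in TNRC6A/B KO and 21.7%, 27.5% and 28.1% in AGO1/2/3 KO, without overlap (difference -18.7 points, exact two-sided permutation p = 0.1). Within the IN set, AGO1/2/3 KO averaged 25.8% ± 3.51, AGO1/2 KO 15.4% ± 1.43, AGO1 KO 11.9% ± 1.72, AGO2 KO 10.4% ± 1.86 and WT 8.20% ± 0.466 (SD, n = 3). AGO1 KO and AGO2 KO overlapped, and AGO1/2/3 KO, AGO1/2 KO and WT did not overlap one another. TNRC6A KO (6.61% ± 0.472) and TNRC6B KO (7.07% ± 0.318) lay within 1 SD of TNRC6A/B KO (7.11% ± 1.63). With the major arm taken from the pan-AGO IP instead, which turned 14 of the 147 hairpins round, the shares were 11.54% ± 1.68 in TNRC6A/B KO and 21.3% ± 2.98 in AGO1/2/3 KO, a difference of -9.79 points.

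Hairpin by hairpin, limma on the log2 ratio of 5p to 3p counts called 104 of 147 (70.7%), with the ratio higher in TNRC6A/B KO in 34.0% and lower in 36.7%. The minor arm held more in AGO1/2/3 KO in 81 of the 104 and less in 23, and the median log2 major over minor ratio was higher by 1.45 in TNRC6A/B KO. Within the IN set, AGO1/2/3 KO against WT called 91 (61.9%, with the 5p to 3p ratio higher in 29.9% and lower in 32.0%), 81 toward the minor arm and 10 toward the major arm, with a median of -1.44. AGO1/2/3 KO against AGO1/2 KO called 43 (29.3%, higher in 12.9% and lower in 16.3%), 41 of them toward the minor arm. TNRC6A/B KO against WT called 60 (40.8%, higher in 17.0% and lower in 23.8%), 26 toward the minor and 34 toward the major arm, median 0.29. TNRC6A/B KO against the mean of TNRC6A KO and TNRC6B KO called 0 hairpins by limma (0.0%, also in each direction), with 4 at an unadjusted p below 0.05.

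miR-23a showed both sides of the shift. Its 5p strand, the passenger, held 0.448%, 0.315% and 0.475% of hairpin counts in TNRC6A/B KO, 24.7%, 32.1% and 36.1% in AGO1/2/3 KO cells and 3.36%, 2.54% and 2.86% in WT. The log2 ratio of 5p to 3p differed by -6.76 ± 0.43 (limma, adjusted p = 1.31e-11). miR-23a-5p itself had 173, 97.2 and 319 CPM in TNRC6A/B KO and 3375, 3410.0 and 3396 in AGO1/2/3 KO, while miR-23a-3p was lower in AGO1/2/3 KO. In AGO1/2/3 KO against WT, miR-23a-5p was higher by 1.93 ± 0.34 and miR-23a-3p changed by -1.92 ± 0.33. On the AGO2-enriched miRNAs alone miR-23a-3p was -0.13 against WT and did not pass (edgeR, adjusted p = 0.631).

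The same pattern held for miR-25 (differences in log2 5p to 3p ratio are given in parentheses), whose passenger took 0.516%, 0.458% and 0.347% in TNRC6A/B KO, 18.4%, 25.5% and 26.9% in AGO1/2/3 KO cells and 1.38%, 1.28% and 1.30% in WT (-6.12 ± 0.39). For miR-191 the passenger took 0.251%, 0.351% and 0.283% in TNRC6A/B KO and 10.98%, 8.28% and 7.54% in AGO1/2/3 KO (5.06 ± 0.38). In both hairpins the 3 groups were apart. miR-642a went further, since its 3p strand took 11.2%, 12.7% and 14.0% in TNRC6A/B KO and 82.1%, 84.8% and 80.5% in AGO1/2/3 KO, so that the minor arm became the main product. Its WT values were 30.3%, 22.7% and 23.5%, and its 3p strand shares sequence with miR-642b, so the split of reads between them is uncertain. miR-23b (-6.14 ± 0.43), miR-328 (-7.02 ± 0.54, or -6.43 without TNRC6A/B KO replicate 3), miR-345 (5.12 ± 0.47) and miR-424 (5.00 ± 0.47) also shifted to the minor arm. miR-345 rests on 9 to 11 hairpin counts per AGO1/2/3 KO library and miR-424 on 29 to 42.

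Among the hairpins with the largest shifts, 2 were at odds with WT. The minor arm of miR-5584 took 13.3%, 24.4% and 21.6% in TNRC6A/B KO and 88.2%, 97.7% and 99.2% in AGO1/2/3 KO, but also 90.6% to 97.8% in WT, so it went with the naming sets (6.84 ± 0.72, or 7.96 and 5.93 without AGO1/2/3 KO replicates 1 and 3). miR-6727 ran the other way, with a minor arm of 73.3%, 62.8% and 55.2% in TNRC6A/B KO, 2.70%, 0.984% and 0.376% in AGO1/2/3 KO cells and 3.05% to 10.0% in WT (-7.07 ± 0.59, or -7.77 and -6.46 without AGO1/2/3 KO replicates 1 and 3).

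**Figure D4:**
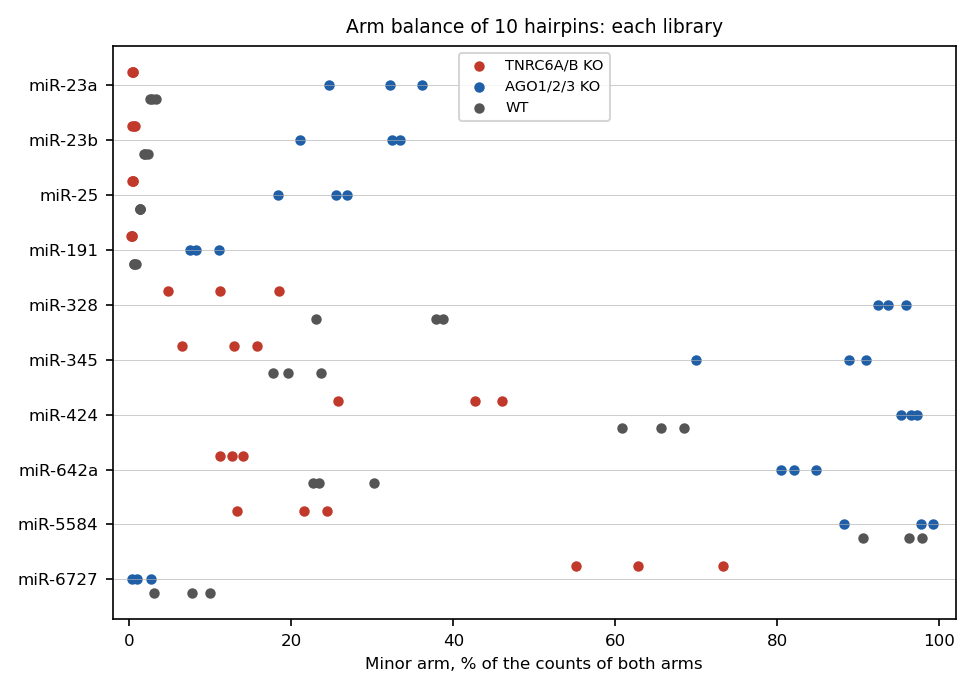
Share of the minor arm in the counts of both arms (%, 0 to 100) for 10 hairpins, 1 point per library, with TNRC6A/B KO (red) above AGO1/2/3 KO (blue) and WT (grey) in each row. miR-23a, miR-23b, miR-25 and miR-191 lie below 1% in TNRC6A/B KO and at 7.54 to 36.1% in AGO1/2/3 KO, whereas miR-5584 and miR-6727 have WT beside AGO1/2/3 KO.

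The 12 largest differences in each direction held 2 kinds of entries. Of the 12 highest, 7 were low in AGO1/2/3 KO against WT of the same set. Besides miR-200c-3p, miR-93-5p and miR-106a-5p these were miR-103a-3p, miR-301a-3p, miR-330-3p and miR-3200-3p. miR-103a-3p, a regulator of Dicer, had 2119.8, 1617 and 4470.0 CPM in TNRC6A/B KO, 48.9, 29.3 and 27.8 in AGO1/2/3 KO cells and 676, 925 and 764 in WT (6.28 ± 0.51). miR-301a-3p changed by 6.11 ± 0.66, or 7.84 and 5.41 without AGO1/2/3 KO replicates 1 and 2. miR-330-3p had 768 counts in TNRC6A/B KO and 3 in AGO1/2/3 KO (ratio 77.1, interval 26.3 to 375), and miR-3200-3p had 1372 in TNRC6A/B KO and 2 in AGO1/2/3 KO (ratio 207, interval 57.1 to 1707).

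The other 5 of the 12 highest were near 0 in every IN library, WT included. miR-3684 had 6102, 7814 and 6987 CPM in TNRC6A/B KO and 0, 7.33 and 0 in AGO1/2/3 KO, where 1 read in all was counted against 7981 (ratio 2403, interval 431 to 94916). WT libraries held 0, 0 and 4.42 CPM, and the 9 TNRC6 KO libraries 4472 to 14844. miR-5089-5p had 7692, 16322 and 6157 CPM in TNRC6A/B KO, 29.3, 14.7 and 18.6 in AGO1/2/3 KO cells and 16.1, 17.2 and 13.3 in WT (8.91 ± 0.52). miR-6863 (6.82 ± 0.50), miR-7515 (6.12 ± 0.47) and miR-5699-3p (5.91 ± 0.55, or 5.25 without TNRC6A/B KO replicate 2) had the same pattern, and TNRC6A KO and TNRC6B KO resembled TNRC6A/B KO in all 5. The log2 ratio of AGO2 IP to whole-cell share was -0.11 for miR-3684 and -5.01 to -2.20 for the other 4. These ratios rest on few WT counts. miR-3684 and miR-6863 fell under the minimum of 10 WT counts used for the ratio elsewhere, so their values say little about AGO2 binding.

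Of the 12 lowest, all but miR-642a-3p had the 9 TNRC6 KO libraries below the 15 others. miR-6787-5p had 28.3, 29.2 and 47.1 CPM in TNRC6A/B KO, 1859, 11066 and 13752 in AGO1/2/3 KO cells and 4538, 3851 and 6331 in WT. AGO1/2/3 KO and WT overlapped, and AGO1/2/3 KO replicate 1 lay well below the other two. The change was -7.94 ± 0.58 (adjusted p = 1.86e-14). miR-5589-5p (-7.22 ± 0.58), miR-563-5p (-6.81 ± 0.63), miR-1469 (-5.76 ± 0.45) and miR-4533-3p (-4.95 ± 0.56) also did not pass between AGO1/2/3 KO and WT. The same held for miR-5584-3p at -5.99 ± 0.58, or -5.14 without AGO1/2/3 KO replicate 3, and miR-222-5p at -4.28 ± 0.47, the passenger of miR-222. The other 5 of the 12 were higher in AGO1/2/3 KO than in WT as well. miR-642a-3p had 39.6, 29.2 and 43.0 CPM in TNRC6A/B KO, 939, 939 and 649.6 in AGO1/2/3 KO cells and 92.5, 73.1 and 83.9 in WT (-4.46 ± 0.36), and AGO1/2/3 KO exceeded WT by 3.33 ± 0.34. miR-6131 (-7.51 ± 0.54), miR-4454 (-5.65 ± 0.62), miR-6727-5p (-5.25 ± 0.48) and miR-1261 (-4.33 ± 0.40) exceeded WT in AGO1/2/3 KO by 1.46 to 2.82.

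**Figure D5:**
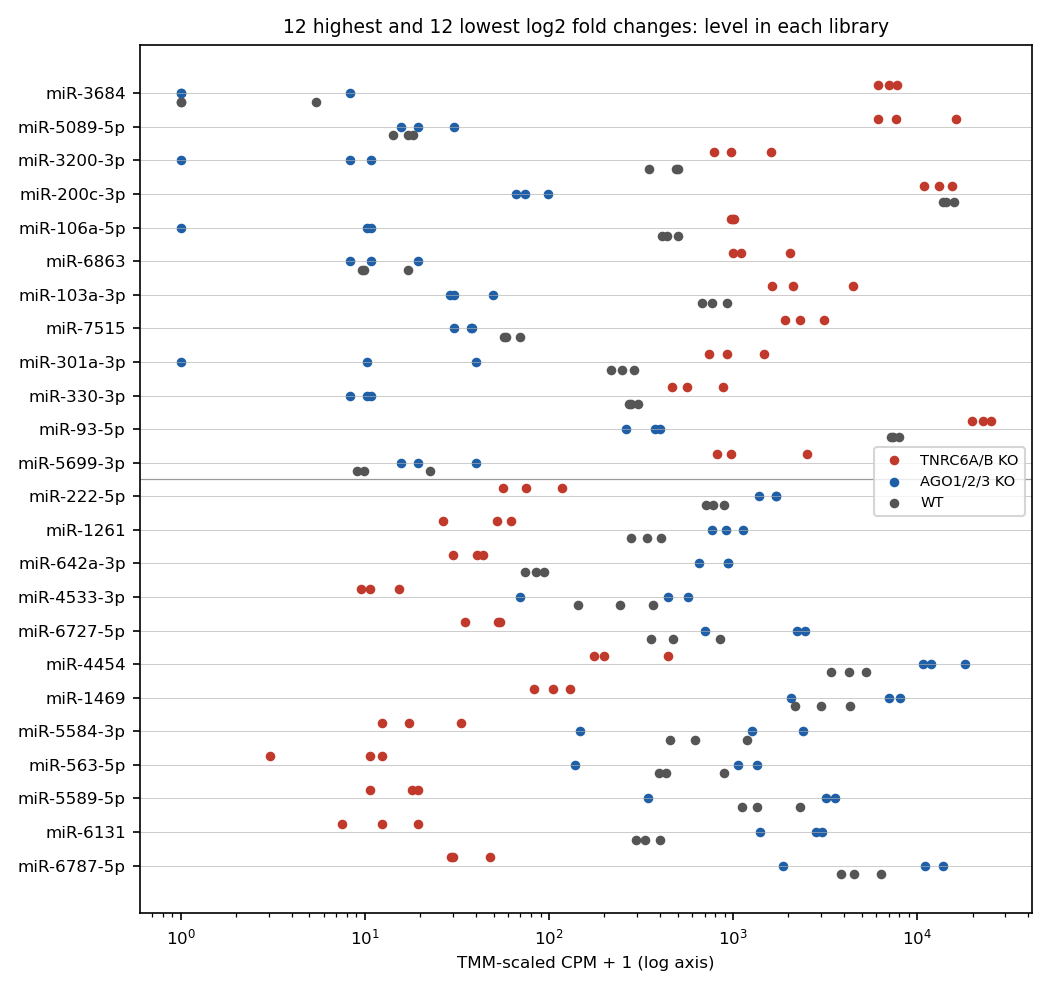
Level in each library (TMM-scaled CPM + 1, log axis) of the 12 miRNAs with the highest and the 12 with the lowest log2 fold change, with TNRC6A/B KO (red) above AGO1/2/3 KO (blue) and WT (grey) in each row. miR-200c-3p has TNRC6A/B KO and WT together at 10906 to 15852 CPM and AGO1/2/3 KO at 65.0 to 97.8, whereas miR-3684 and miR-6787-5p have AGO1/2/3 KO on the side of WT.

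Over all called miRNAs, 179 of the 522 higher ones had all 9 TNRC6 KO libraries above all 15 IN libraries, and 192 of the 467 lower ones had all 9 below. Over all 1990 tested miRNAs 183 had them above and 199 below, 19.2% in all, and over the 181 AGO2-enriched ones 23 above and 0 below, 12.7%. Of the 140 higher ones enriched in the AGO2 IP, 23 separated the sets in this way (16.4%), against 34.3% of all 522. Within each set, fewer miRNAs passed. TNRC6A/B KO against the mean of the single TNRC6 knockouts called 3 of 1990 miRNAs (0.151%), 2 higher (0.101%) and 1 lower (0.0503%), the 3 being miR-224-5p, miR-3941-5p and miR-4745-3p, and 25 without TNRC6A/B KO replicate 2 and 5 without TNRC6A/B KO replicate 3 or TNRC6A KO replicate 1. AGO1/2/3 KO against AGO1/2 KO called 84 (4.22%), 9 higher (0.452%) and 75 lower (3.77%). On the miRNA total this split turned to 55 higher and 41 lower, and on all RNAs it was 11 and 65. Leaving out AGO1/2/3 KO replicate 2 gave 35 calls, leaving out its replicate 3 gave 54, and leaving out AGO1/2 KO replicates 1 and 2 in turn gave 51 and 54. Of the 181 miRNAs enriched in the AGO2 IP, 0 were higher and 43 lower in that comparison, or 5 and 23 on the miRNA total.

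The called miRNAs also differed in base composition. Mature sequences of the higher ones had a median GC content of 45.5% (428 of 522 with a RefSeq sequence) and those of the lower ones 60.9% (379 of 467), against 52.4% over 1583 tested miRNAs. Of 282 miRNAs below 40% GC, 124 were higher and 24 lower, median 1.06. Of 504 at 60% GC or more, 71 were higher and 204 lower, median -0.80. On the miRNA total the class below 40% had 47 higher and 60 lower, median -0.18, and the class at 60% or more 30 higher and 349 lower, median -2.15. On all RNAs the class below 40% had 216 higher and 8 lower, median 2.42, and the class at 60% or more 139 higher and 70 lower, median 0.35. In AGO1/2/3 KO against WT, within the IN set, the medians of these classes were 0.29 and 0.02 on the TMM scale, 1.42 and 1.14 on the miRNA total, and -0.25 and -0.49 on all RNAs. The part of GC content in the result was not tested.

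miRNAs that share a seed were also summed. A sum does not depend on how reads are split between members, but it keeps any error from reads dropped or counted more than once. Of 1378 seed families 675 (49.0%) passed, 367 higher (26.6%) and 308 lower (22.4%). The split was 124 and 702 on the miRNA total, and 739 and 108 of 1211 on all RNAs. The AAAGUGC family of miR-93-5p, miR-17-5p, miR-106a-5p, miR-20a-5p and others averaged 31557 ± 2364 CPM in TNRC6A/B KO, 558 ± 120 in AGO1/2/3 KO cells and 11494 ± 845 in WT (SD, n = 3), a change of 5.82 ± 0.39 (edgeR, adjusted p = 2.57e-15). The let-7 seed GAGGUAG averaged 621650.0 ± 412774 CPM in TNRC6A/B KO, 117992 ± 28718 in AGO1/2/3 KO cells and 493615 ± 41606 in WT, a change of 2.40 ± 0.34. The families AUUGCAC (miR-25 and miR-92) and UCACAUU (miR-23) changed by 2.53 ± 0.32 and 2.50 ± 0.34, and GCUACAU (miR-221 and miR-222) and AGCUUAU (mainly miR-21-5p) by 2.09 ± 0.35 and 1.81 ± 0.34. Of the 4 families named for the highest and the 4 for the lowest changes, 7 hold a single entry, each described above, and miR-6787-5p held 93.6% of the counts of the eighth, GGCGGGG.

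RNAs outside the miRNA class also differed between the lines. Of 630 tested tRNA, snoRNA, rRNA and precursor entries 492 (78.1%) passed, 211 higher (33.5%) and 281 lower (44.6%). With RLE factors this split was 273 and 213, and on all RNAs 114 and 449. Of 57 snoRNA, scaRNA and Y RNA entries 55 were higher and none lower, median 7.32. The C/D box snoRNA SNORD119 had 618, 513 and 879 CPM in TNRC6A/B KO and 2.29, 0 and 0.892 in AGO1/2/3 KO (9.43 ± 0.49). HBII-420 (10.10 ± 0.44), U17b (9.35 ± 0.41) and the miRNA precursor entry mir-1248 (9.58 ± 0.44) were higher by similar amounts. Of 409 cytosolic tRNA entries 38 were higher and 272 lower. tRNA-Asp-GTC-2-4 had 97.3, 74.8 and 121 CPM in TNRC6A/B KO and 5484, 13658 and 13287 in AGO1/2/3 KO (-6.78 ± 0.36), and tRNA-Arg-TCT-5-1, tRNA-Arg-TCG-3-1 and tRNA-Arg-ACG-2-2 changed by -6.13 to -7.25. For each of these 8 entries WT lay with AGO1/2/3 KO and the single TNRC6 knockouts with TNRC6A/B KO, so TNRC6 genotype and naming set cannot be told apart for them.

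As shares of all counts, rRNA took 56.1% ± 2.33 in TNRC6A/B KO and 20.3% ± 7.80 in AGO1/2/3 KO, and cytosolic tRNA took 1.09% ± 0.132 in TNRC6A/B KO and 22.7% ± 6.84 in AGO1/2/3 KO (SD, n = 3). AGO1/2/3 KO replicate 1 had 29.3% rRNA and the lowest tRNA share of the group, against 15.6% and 15.9% rRNA in the other two. Mitochondrial tRNA took 3.43% ± 0.118 in TNRC6A/B KO and 18.2% ± 0.763 in AGO1/2/3 KO, and miscellaneous RNAs of the Ensembl annotation took 1.76% ± 0.217 in TNRC6A/B KO and 13.7% ± 1.83 in AGO1/2/3 KO. The groups did not overlap in any of these classes (exact two-sided permutation p = 0.1 each). All of them also separated the naming sets. Mitochondrial tRNA took 2.37 to 4.09% in the TNRC6 KO libraries and 14.0 to 26.3% in the IN libraries. For miscellaneous RNAs the ranges were 1.11 to 1.99% and 5.19 to 16.3%. Without the Ensembl entries in the total, the cytosolic tRNA difference was -35.3 in place of -21.6 points. The snoRNA and scaRNA difference was 0.898 in place of 3.84 points, but there the class itself also lost its Ensembl entries. That drop is therefore not an effect of the total alone. Precursor tRNA took 0.242% ± 0.0194 in TNRC6A/B KO and 0.241% ± 0.0641 in AGO1/2/3 KO, a difference within the spread.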

How the data were processed

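The deposited files hold counts per RNA entry, 1 file per library, made by the authors from TruSeq small RNA libraries. Per the submitters' processing notes they used cutadapt 1.16, Bowtie 1.1.2 and GRCh38 (hg38). For settings, and for reads that match several entries, the sources used here give nothing. miRNA variant entries (2.15% of miRNA counts in the 6 libraries) were summed to their miRNA. Total counts ran from 2727180 to 7888782, and 1 count was worth 2.05 to 3.24 CPM in TNRC6A/B KO and 7.33 to 9.78 CPM in AGO1/2/3 KO. Intervals (exact, 95%) cover counting error only, since no molecular identifiers are named.

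miRNAs were tested with edgeR 4.0.16 under R 4.3.3 (filterByExpr with minimum count 10 and total 15, TMM, quasi-likelihood F test, Benjamini-Hochberg) over 24 libraries. Each SE was taken as the log2 change divided by the root of its F value. Arm balance used limma 3.58.1 on log2 ratios (pseudocount 0.5) for hairpins averaging 10 or more minor-arm counts and 50 or more in all. AGO2 and pan-AGO IP libraries of WT served only to annotate miRNAs and choose major arms. Single shares used exact permutation tests. The scripts were tested on simulated data with known changes. There the miRNA test recovered 22.0% of tested 2-fold changes and 88.8% of tested 4-fold changes. A miRNA that did not pass may therefore still differ by a modest amount. Sequences matched 1583 of the tested miRNAs in RefSeq, and host genes came from GENCODE v29.

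Named miRNAs were the 12 largest changes each way (non-overlapping groups, at least 200 CPM), the 10 most abundant per group, up to 4 per list, 5 hairpins, 4 seed families and 4 other RNAs each way. Members and lists were chosen with earlier results of these data known. Tables and plots used Python 3.11.15 with matplotlib 3.10.9, scipy 1.17.1, numpy 2.4.6 and pandas 2.3.3.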

Additional observations from a re-analysis of the deposited data

How the results depend on the processing

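Of the 989 called miRNAs in TNRC6A/B KO against AGO1/2/3 KO, leaving out 1 library at a time gave 850 to 1012, DESeq2 1.42.0 gave 911, RLE factors 988 and no filter 1021. A minimum count of 50 left 599 tested and 491 called. A fit on only the 181 miRNAs enriched in the AGO2 IP of WT, chosen after seeing the data, called 85, with 47 higher and 38 lower. It called 55 for TNRC6A/B KO against WT, 31 higher and 24 lower. For AGO1/2/3 KO against WT it called 80, 35 higher and 45 lower, with a median of 0.11. With all miRNAs fitted, 140 of the same 181 were higher and 4 lower in the first comparison, 57 and 5 in the second, and 5 and 113 in the third, so the drop and the new split go with the scale that the 181 set. On the miRNA total alone AGO1/2/3 KO against WT called 979, 864 of them higher. TNRC6A/B KO against the single TNRC6 knockouts called 9 on all RNAs and 3 to 25 when single libraries were left out, and AGO1/2/3 KO against AGO1/2 KO 35 to 85. A minimum minor-arm count of 30 left 64 hairpins and 48 calls. Arm calls were 90 to 99 with single libraries left out. With a replicate block the 6 libraries gave 699 calls of 1078, against 672 without it, and 85 arm calls against 91. Same-numbered libraries had residual correlations of 0.00968, 0.0846 and -0.00512 over 1990 miRNAs, and not every library correlated best with its own number. With 3 libraries per group, these values cannot show whether same-numbered libraries were prepared together.

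Over 73 named miRNAs and hairpins, 1024 values under the alternatives kept direction and side of the threshold, 24 lost the call, 8 gained it and 9 turned round. On the AGO2-enriched miRNAs alone let-7f-5p was -0.46, let-7b-5p -1.64, miR-30c-5p -0.32 and miR-21-5p -0.56. On the miRNA total let-7b-5p was -0.73, miR-138-2-3p -0.50 and miR-15a-5p -1.11. On all RNAs miR-4668-5p was 0.49. With single libraries left out let-7b-5p ran from -0.11 (without TNRC6A/B KO replicate 3) to 1.17 (without TNRC6A/B KO replicate 2). The cause of these turns was not tested. Depth was lowest for AGO1/2/3 KO, where a miRNA near 10 CPM rests on about 1 count per library.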

Other observations

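Among the 181 miRNAs enriched in the AGO2 IP of WT, some strands stood lower in TNRC6A/B KO than in AGO1/2/3 KO when these 181 alone set the scale. They were named after their values were seen. miR-550a-5p averaged 23.8 CPM in TNRC6A/B KO, 194 in AGO1/2/3 KO and 38.1 in WT, with a log2 fold change of -5.30 ± 0.47 (edgeR, adjusted p = 3.75e-10) on this scale and -3.01 ± 0.43 over all miRNAs. miR-26a-2-3p averaged 63.9 CPM in TNRC6A/B KO, 316 in AGO1/2/3 KO and 138 in WT (-4.58 ± 0.43 on this scale, -2.31 ± 0.38 over all miRNAs). let-7a-3p, the passenger of let-7a, averaged 1729 CPM in TNRC6A/B KO and 2904 in AGO1/2/3 KO. It was -3.06 ± 0.34 on this scale and did not pass over all miRNAs, at -0.75 ± 0.37 (adjusted p = 0.0898).

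Fragments of TNRC6C, the TNRC6 gene that neither line was labelled as lacking, stood at 136, 113 and 111 CPM of mRNA counts in TNRC6A/B KO, 70.9, 48.3 and 62.9 in AGO1/2/3 KO and 52.9 to 62.6 in WT. The TNRC6A/B KO libraries lay above AGO1/2/3 KO and WT without overlap, and TNRC6A KO libraries, at 105 to 111, overlapped them. TNRC6B KO libraries held 73.2 to 81.7 CPM, and none of the 15 IN libraries exceeded 70.9 CPM. TNRC6C fragments thus separated the naming sets, so TNRC6 genotype and naming set cannot be told apart for them. They rest on 33 to 57 counts in TNRC6A/B KO and 11 or 12 in AGO1/2/3 KO.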
